A study of Mus musculus with 7 samples.

Results

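Alpha and beta tubulins are the paired subunits from which microtubules are built. The 10 genes described here are Tuba1a, Tuba1b, Tuba1c and Tuba4a, which encode 4 alpha tubulins, and Tubb2a, Tubb2b, Tubb3, Tubb4b, Tubb5 and Tubb6, which encode 6 beta tubulins. They were found among the 56065 rows of a gene count table by their Ensembl identifiers, and all 10 had enough reads to be tested. The table came from bulk RNA-Seq of whole extrahepatic bile duct (EHBD) of C57BL/6J mice (C57BL/6 in the labels), taken 48 hours after surgery. The sham group had 3 libraries, replicate 1 from a female and replicates 2 and 3 from males, and these mice had a laparotomy without ligation. The bile duct ligation (BDL) group had 4 libraries, replicates 1 and 2 from males and replicates 3 and 4 from females, and here a ligature beside the duodenum closed the duct so that bile could not drain. The study's methods describe the mice as adult wild types, and the labels give no age. The study gives its group sizes at this time in mice, and the labels name no animals.

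An alpha and a beta subunit join into a dimer, dimers add end to end into filaments, and filaments join side by side into the hollow microtubule. Microtubules separate chromosomes in the mitotic spindle, carry cargo, and form the core of the primary cilium with which cholangiocytes, the epithelial cells of bile ducts, sense bile. Mammals have several genes for each subunit, called isotypes, whose proteins differ most in the acidic carboxy-terminal tail, where enzymes add and remove glutamates and, on alpha tubulin, the terminal tyrosine. Cells also hold down their own tubulin supply: when free dimers are in excess, the protein TTC5 binds the first amino acids of a tubulin chain as it leaves the ribosome, and the CCR4-NOT complex then degrades the messenger RNA.

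The starts of the coding sequences are shown because they encode the residues that TTC5 reads. Each is the first 30 bases of the coding sequence in GENCODE vM39, with the first 4 codons in capitals. The capitals took 2 forms among the 4 alpha genes and 5 forms among the 6 beta genes. In the starts shown, these base differences do not change the encoded residues. Each alpha start encodes methionine, arginine, glutamate and cysteine, and each beta start methionine, arginine, glutamate and isoleucine.
Tuba1a: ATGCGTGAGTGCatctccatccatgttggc
Tuba4a: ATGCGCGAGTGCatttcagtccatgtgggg
Tubb2a: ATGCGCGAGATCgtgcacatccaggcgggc
Tubb2b: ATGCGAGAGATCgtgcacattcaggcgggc
Tubb4b: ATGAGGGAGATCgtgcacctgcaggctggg
Tubb5: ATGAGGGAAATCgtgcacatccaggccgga

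The ends of the coding sequences are shown because they encode the tails, in which many isotypes differ. The ends of Tubb2a and Tubb2b differ only in bases that leave the encoded amino acids the same. Each is the last 60 bases, with the final amino acid codon and the stop codon in capitals. Tuba1c ends in a tyrosine codon and Tuba4a does not, so the enzymes that remove a terminal tyrosine have none encoded to act on in the Tuba4a product.
Tuba1c: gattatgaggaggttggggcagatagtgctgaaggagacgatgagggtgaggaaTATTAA
Tuba4a: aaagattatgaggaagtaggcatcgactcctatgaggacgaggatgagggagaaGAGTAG
Tubb2a: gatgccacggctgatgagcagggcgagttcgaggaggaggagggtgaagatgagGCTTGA
Tubb2b: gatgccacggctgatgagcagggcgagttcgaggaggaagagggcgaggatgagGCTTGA
Tubb4b: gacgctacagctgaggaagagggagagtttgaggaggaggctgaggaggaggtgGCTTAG
Tubb5: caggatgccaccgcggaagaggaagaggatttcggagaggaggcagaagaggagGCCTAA

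Over the whole coding sequence Tuba1a and Tuba1b were 98.3% identical, Tuba1b and Tuba1c 97.9%, and Tuba1a and Tuba1c 97.1%. Tuba4a stood apart from these 3 at 84.7% to 85.3%. Among the beta genes Tubb2a and Tubb2b were 96.5% identical, and the other beta pairs ranged from 80.2% for Tubb5 and Tubb6 to 86.0% for Tubb3 and Tubb6. An alpha and a beta gene shared 55.8% to 57.7% of aligned bases. Reads from the near-identical genes cannot always be placed, so their separate values depend on how the authors' software, Salmon, divided the shared reads, and sums over them are given beside the results.

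**Figure D1:**
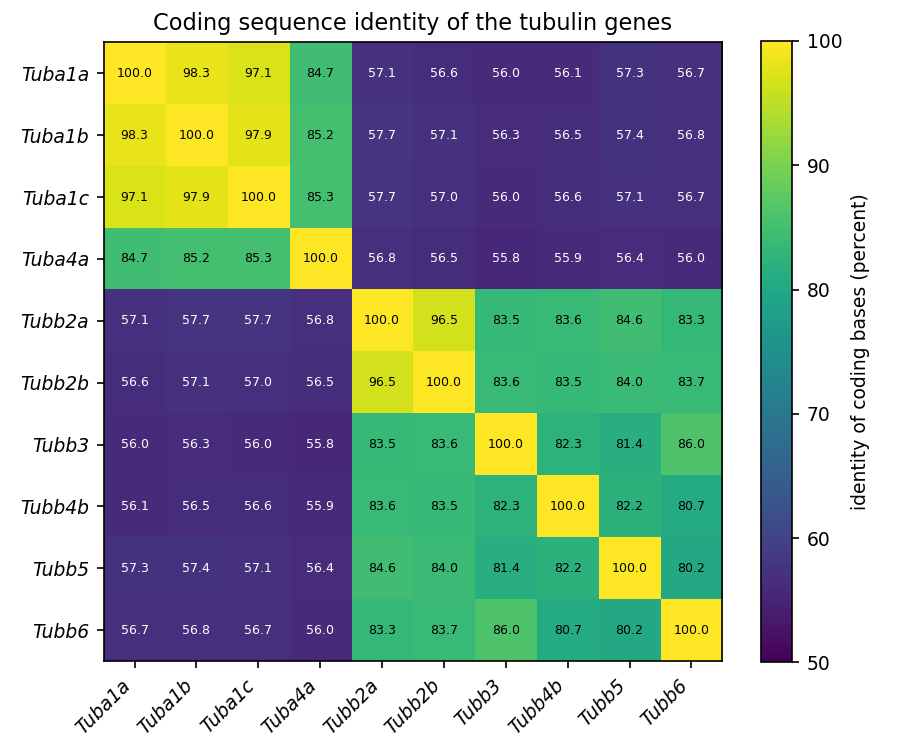
Percent of aligned coding bases that are identical for each pair of the 10 tubulin genes. Tuba1a, Tuba1b and Tuba1c form one near-identical block and Tubb2a with Tubb2b another, and alpha and beta genes share the least.

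In GRCm39 coordinates Tuba1b (ENSMUSG00000023004, chr15:98827738-98832493, minus strand), Tuba1a (ENSMUSG00000072235, chr15:98847714-98851589, minus strand) and Tuba1c (ENSMUSG00000043091, chr15:98927748-98936266, plus strand) lie next to each other on chromosome 15. Tubb2a (ENSMUSG00000058672, chr13:34257549-34261998) and Tubb2b (ENSMUSG00000045136, chr13:34307245-34315143) lie close together on the minus strand of chromosome 13. The others stand alone: Tuba4a (ENSMUSG00000026202, chr1:75189219-75196566, minus strand), Tubb3 (ENSMUSG00000062380, chr8:124138163-124150092, plus strand), Tubb4b (ENSMUSG00000036752, chr2:25112170-25114714, minus strand), Tubb5 (ENSMUSG00000001525, chr17:36144809-36149198, minus strand) and Tubb6 (ENSMUSG00000001473, chr18:67523585-67536773, plus strand). The canonical transcript of each had 4 exons.

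Libraries held 48882420 to 61291821 counts, and levels are given as CPM, counts scaled to a common library total by the TMM method. The pancreas lies beside the duct, and genes for its digestive enzymes, made by acinar cells, held 5.08% to 22.3% of sham counts, with sham replicate 3 the highest, and 0.00229% to 5.77% of BDL counts. Hepatocyte markers took 1.22% and 3.64% in BDL replicates 1 and 4 and at most 0.0582% elsewhere. None of these 16 acinar and 12 hepatocyte markers passed the test between groups. Of the 3 epithelial markers used by the study, Krt19, a cholangiocyte keratin, was called higher, at 742 to 918 CPM in sham and 1676 to 2768 CPM in BDL libraries. Epcam measured 421 to 705 and 512 to 875 CPM, with overlap, and Prom1 measured 932 to 1543 and 416 to 878 CPM, lower in every BDL library, and neither passed the test (adjusted p = 0.438 and 0.120). The tissue's fibroblast markers were higher in BDL in 3 of 3 cases. Of the study's 3 immune markers, Ptprc was called lower, at 16.3 to 38.6 CPM in sham and 5.68 to 8.73 CPM in BDL libraries. For Itgam and Itgb2 the groups overlapped, and neither passed the test (adjusted p = 0.853 and 0.251).

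Every one of the 10 tubulin genes was higher after BDL than after sham surgery at an adjusted p under 0.05 (edgeR's quasi-likelihood test with sex as a covariate, Benjamini-Hochberg adjustment over 25209 genes). Of all genes tested, 11.8% were called higher and 11% lower, or 22.8% in either direction. The median log2 fold change was 1.64 over the 10 genes and -0.01 over all genes. For all 10, every BDL library lay above every sham library, a pattern that 18.7% of all genes tested showed, against 18% with the reverse. Together the 10 genes took 0.0412% to 0.101% of the counts of sham libraries and 0.222% to 0.305% of those of BDL libraries. Here and below, such shares are of unscaled totals, which include reads from neighbouring tissue. The lowest was that of sham replicate 3, in which acinar genes held 22.3% of counts. In whole tissue, more cells of a kind and more RNA per cell cannot be told apart.

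**Figure D2:**
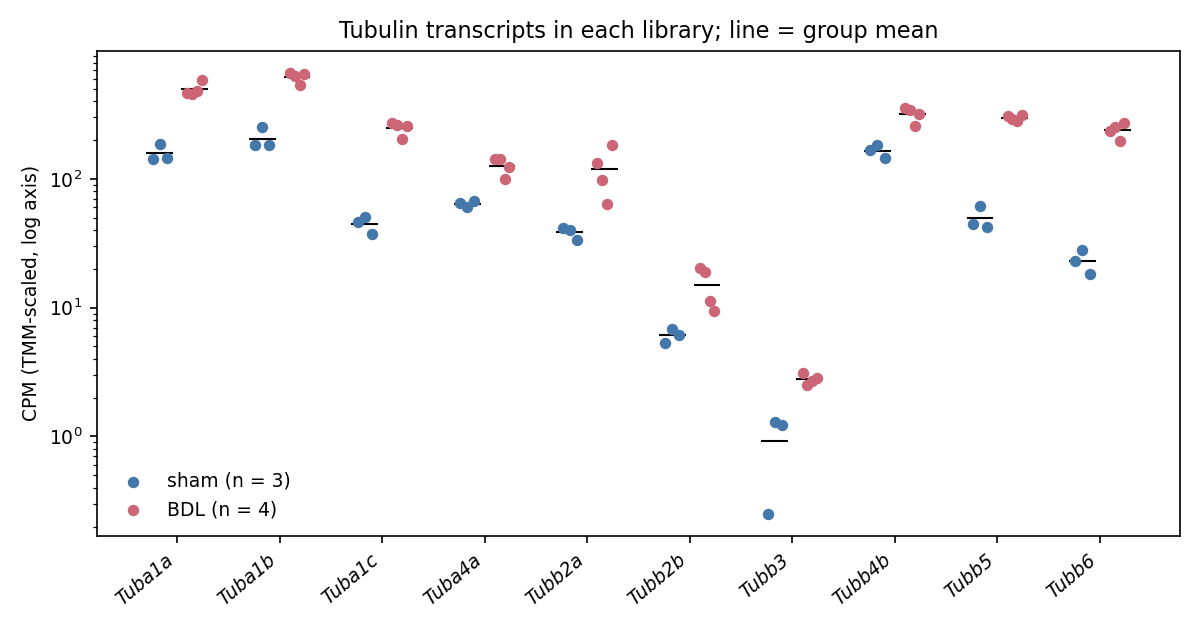
Level in CPM (log axis) of the 10 tubulin genes in 3 sham (blue) and 4 BDL libraries (red), with a line at each group mean. All BDL points lie above all sham points of the same gene, by the widest margin for Tubb6 and by a narrow margin for Tubb2b and Tubb4b.

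Tubb6, a beta tubulin that is low in most resting adult tissues, changed most. Its level was 23.0, 28.3 and 18.4 CPM in sham replicates 1 to 3, and 235, 251, 198 and 272 CPM in BDL replicates 1 to 4. The groups were far apart, with the lowest BDL library 7.01 times the highest sham library. Its mean was 23.2 ± 4.98 CPM (SD, n = 3) in sham and 239 ± 31.1 CPM (SD, n = 4) in BDL libraries, a rise of 10.3-fold, and the fitted log2 fold change was 3.37 (SE 0.24, adjusted p = 0.000383).

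Tubb5, the beta tubulin of most dividing cells, was the next most changed. It measured 44.8, 61.4 and 42.1 CPM in sham replicates 1 to 3 and 310.2, 291, 280.0 and 313 CPM in BDL replicates 1 to 4. The BDL libraries were close to each other, with a coefficient of variation of 5.34%, and the lowest was 4.56 times the highest sham library. Its log2 fold change was 2.61 (SE 0.21, adjusted p = 0.000582).

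Tubb4b, a widely made beta tubulin that is also a main component of cilia, was the most abundant beta gene in sham ducts and had the smallest change. Its level was 169, 185 and 145 CPM in sham replicates 1 to 3 and 358, 343, 257 and 317 CPM in BDL replicates 1 to 4. BDL replicate 3 came nearest to the sham range and was still 1.39 times the highest sham library. The log2 fold change was 0.96 (SE 0.19, adjusted p = 0.0130), and the call ended without BDL replicate 1 (adjusted p = 0.0509) and, in an alternative chosen after seeing the data, without sham replicate 3 and BDL replicate 4 together (adjusted p = 0.0591). Of 10 markers of multiciliated cells listed, Mcidas and Dnah9 had too few counts to be tested. Of the other 8, 0 were called higher and 4 lower, beside 11.8% and 11% of all genes tested. Those lower included Foxj1, the regulator of motile cilia (log2 fold change -2.18, SE 0.35). Foxj1 was low, at 2.21 to 4.54 CPM in sham and 0.62 to 0.84 CPM in BDL libraries. These markers do not describe the primary cilium, and their relation to Tubb4b was not tested. The summed share of the list was 0.00302% to 0.00797% of sham and 0.00157% to 0.00301% of BDL counts. Most of these counts came from Tppp3 alone, at 24.8 to 52.8 CPM in sham and 11.1 to 21.2 CPM in BDL libraries. Tppp3 was not called (adjusted p = 0.0598).

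Tubb2a and Tubb2b are beta tubulins best known from neurons, and Tubb2a is also made widely outside the nervous system. Tubb2a measured 41.9, 40.3 and 33.8 CPM in sham replicates 1 to 3 and 132, 98.0, 63.4 and 182 CPM in BDL replicates 1 to 4. The BDL libraries spread widely, with a coefficient of variation of 42.5%, and BDL replicate 3 was the lowest and BDL replicate 4 the highest. Its log2 fold change was 1.60 (SE 0.36, adjusted p = 0.0179). This call ended without sham replicate 1, 2 or 3 or BDL replicate 1 (adjusted p = 0.0746, 0.0609, 0.0753 and 0.0643), and without sham replicate 3 and BDL replicate 4 together (adjusted p = 0.0717).

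Tubb2b was far lower, at 5.30, 6.84 and 6.12 CPM in sham replicates 1 to 3 and 20.3, 19.0, 11.2 and 9.38 CPM in BDL replicates 1 to 4. Here BDL replicate 4 was the lowest of its group. On the log2 scale the change was 1.34 (SE 0.22, adjusted p = 0.00581). The ratio of Tubb2a to Tubb2b was 19.4 in BDL replicate 4 and 5.17 to 7.91 in the other 6 libraries. The sum of both genes averaged 44.7 CPM in sham and 134 CPM in BDL libraries, which is 1.58 on the log2 scale by the same fit (SE 0.32, adjusted p = 0.0138).

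Tubb3, the beta tubulin used as a marker of neurons, was near the limit of detection. It had 13, 83 and 46 counts in sham replicates 1 to 3 and 205, 137, 165 and 163 counts in BDL replicates 1 to 4, or 0.250 to 1.29 CPM against 2.51 to 3.09 CPM. The groups did not overlap, and the single female sham library was the lowest. The log2 fold change was 1.93 (SE 0.55, adjusted p = 0.0440), and the call ended in 12 of 20 alternatives, among them each of the 7 that left out 1 library (adjusted p from 0.0580 to 0.109). Without sham replicate 1, the lowest library, the log2 fold change was 1.15. Of 15 neuron markers listed, Elavl3 had too few counts to be tested. Of the other 14, 0 were called higher and 3 lower, beside 11.8% and 11% of all genes tested. Gap43 had the highest estimate (0.78, SE 0.56, not called). The 3 called lower were the neurofilaments Nefl (-3.66, SE 0.53) and Nefm (-3.15, SE 0.75) and the acetylcholine synthesis enzyme Chat (-5.46, SE 1.06). Nefm had 10 to 24 counts in sham and 1 to 3 counts in BDL libraries. Nefm and Chat lost their calls in 7 and 2 of 20 alternatives. The cells that made Chat in this tissue were not determined. Leaving out sham replicate 1 or 2 gave -3.99 or -6.09 for Chat, and leaving out BDL replicate 1 or 4 gave -6.83 or -4.85. The summed share of the list was 0.00257% to 0.00488% of sham and 0.00234% to 0.00383% of BDL counts.

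Among the alpha tubulins, Tuba1c rose most. It measured 46.6, 50.5 and 37.5 CPM in sham replicates 1 to 3 and 272, 264, 206 and 258 CPM in BDL replicates 1 to 4. The lowest BDL library was 4.08 times the highest sham library. On the log2 scale the change was 2.49 (SE 0.20, adjusted p = 0.000590).

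Tuba1a, the alpha tubulin that predominates in developing neurons, measured 142, 186 and 145 CPM in sham replicates 1 to 3 and 463, 457, 483 and 591 CPM in BDL replicates 1 to 4, and changed by 1.65 on the log2 scale (SE 0.22, adjusted p = 0.00295). Tuba1b, the alpha tubulin of most cell types, measured 183, 251 and 182 CPM in sham and 666, 626, 539 and 647 CPM in BDL replicates, and changed by 1.63 (SE 0.22, adjusted p = 0.00311). Both genes roughly followed each other, with a ratio of Tuba1a to Tuba1b between 0.694 and 0.913 in all 7 libraries. Summed, Tuba1a, Tuba1b and Tuba1c averaged 408 CPM in sham and 1368 CPM in BDL libraries (log2 fold change 1.76, SE 0.26, adjusted p = 0.00387), a value that does not depend on how reads were divided among the 3.

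Tuba4a, the alpha tubulin without an encoded terminal tyrosine, had the smallest fold change of the alpha genes. Its sham libraries were tightly grouped at 64.8, 60.8 and 66.9 CPM, and BDL replicates 1 to 4 measured 142, 143, 99.2 and 124 CPM. The log2 fold change was 1.01 (SE 0.16, adjusted p = 0.00576). The calls of Tuba1a, Tuba1b, Tuba1c, Tuba4a, Tubb2b, Tubb5 and Tubb6 held in every alternative in which the gene had a row of its own, including leaving acinar and hepatocyte markers out before scaling.

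**Figure D3:**
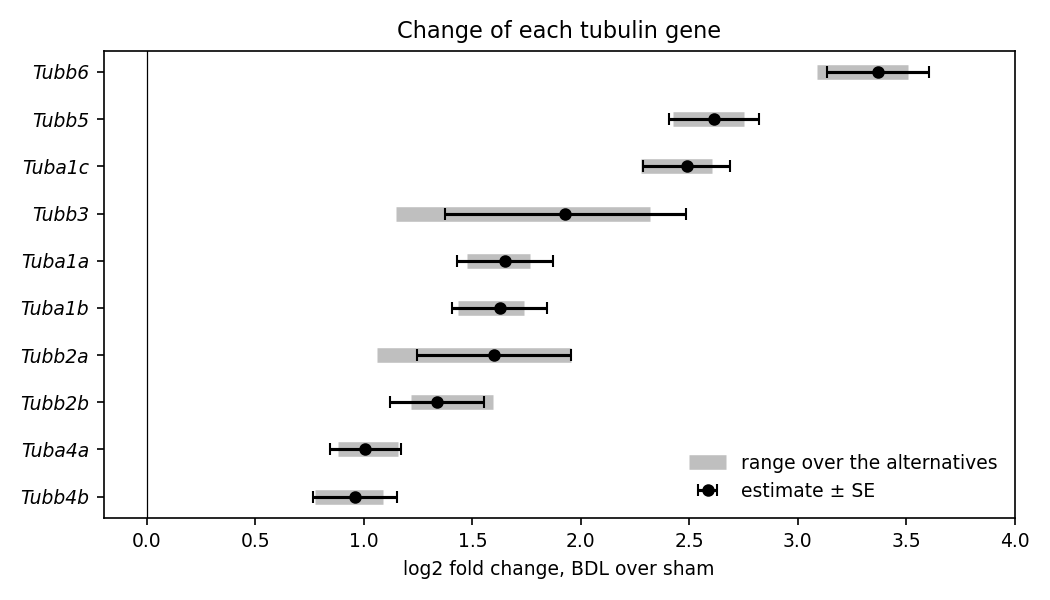
Log2 fold change of BDL over sham for each tubulin gene (black point, with 1 SE on either side), ordered by size, and the range over all alternative settings (grey bar). All estimates and ranges lie above 0, from 0.96 for Tubb4b to 3.37 for Tubb6.

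Some members overlap other genes on the opposite strand, and the SMART-Seq kit does not mark strand, so reads of the shared stretches could come from either gene. In GENCODE vM39, 86.7% of the 31-base words of the Tubb2a transcript also occur in transcripts of Bphl, 42.4% of those of Tubb5 in Flot1, 39.5% of those of Tuba4a in Stk16 and 34.0% of those of Tubb6 in Afg3l2. The partner Bphl, a hydrolase gene, measured 25.5 to 32.4 CPM in sham and 15.3 to 28.4 CPM in BDL libraries. Stk16, a kinase gene, measured 33.1 to 42.3 CPM in sham and 26.9 to 44.6 CPM in BDL libraries. For both partners the ranges of the groups overlapped. Flot1, which encodes a membrane scaffold protein, measured 30.2 to 42.5 against 41.4 to 69.6 CPM, and Afg3l2, a mitochondrial protease gene, 52.1 to 61.3 against 68.1 to 96.1 CPM, and of these partners Afg3l2 alone had no overlap between groups. Tubulin pseudogenes took few reads: 5 of them together held 152 counts over all libraries, 0.0213% of the counts of the 10 genes.

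The levels of different genes were compared as CPM per kilobase of exon. In sham ducts the order of mean levels was Tuba1a (86.9), Tubb4b (79.5), Tuba1b (58.8), Tuba1c (17.4), Tubb2a (16.4), Tubb5 (14.8), Tuba4a (11.8), Tubb6 (6.13), Tubb2b (0.987) and Tubb3 (0.288). The ranges over libraries overlapped between neighbours from Tuba1a to Tuba1b and from Tuba1c to Tubb5. In BDL ducts the order was Tuba1a (275), Tuba1b (178), Tubb4b (153), Tuba1c (96.6), Tubb5 (89.4), Tubb6 (63.1), Tubb2a (50.5), Tuba4a (23.3), Tubb2b (2.43) and Tubb3 (0.870). There the ranges of Tuba1b and Tubb4b, of Tuba1c and Tubb5, and of Tubb6 and Tubb2a overlapped. With the length of the longest transcript in place of all exons, 5 of the 10 genes kept their rank in sham and 6 in BDL, so the order of close neighbours depends on the length used.

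The make-up of the beta pool, meaning the 6 beta genes described here, was next given as shares. Tubb4b made up 67.8%, 66.5% and 67.6% of the length-scaled beta signal in sham replicates 1 to 3 and 44.3%, 45.2%, 42.6% and 38.2% in BDL replicates 1 to 4. Tubb5 went the other way, from 11.3%, 13.8% and 12.3% to 24.0%, 24.0%, 29.0% and 23.6%. Tubb6 went from 5.11%, 5.62% and 4.72% to 16.1%, 18.2%, 18.1% and 18.1%. For these 3 genes no BDL library fell within the sham range, and shares of one pool are not independent of each other. The ranges of Tubb2a, Tubb2b and Tubb3 overlapped.

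Shares in the alpha pool lay closer together. Tuba1a made up 49.7% ± 0.857 of it in sham (SD, n = 3) and 48.0% ± 3.94 in BDL (SD, n = 4), and Tuba1b 33.5% ± 1.32 and 31.03% ± 1.83, with overlapping ranges for both. Tuba1c went from 9.96% ± 1.10 to 16.9% ± 1.55 and Tuba4a from 6.84% ± 1.24 to 4.07% ± 0.615, without overlap. The same 5 genes were free of overlap when the longest transcript gave the length. No test was run on shares or ratios.

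**Figure D4:**
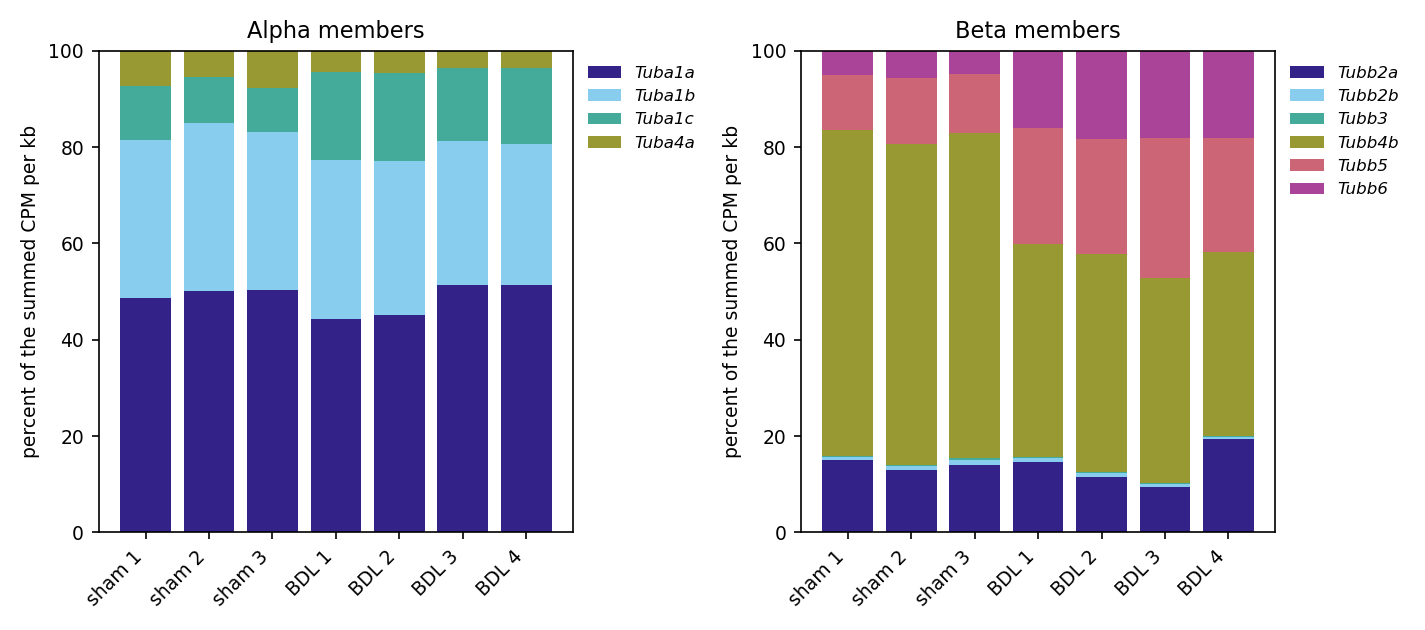
Share of each gene in the summed CPM per kilobase of the 4 alpha genes (left) and the 6 beta genes (right), in percent, for each of the 7 libraries. In the beta pool Tubb4b takes 66.5% to 67.8% in sham and 38.2% to 45.2% in BDL libraries, where Tubb5 and Tubb6 take more.

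Ratios between genes of a family restate these shares in CPM. The ratio of Tubb6 to Tubb4b in CPM was 0.127 to 0.153 in sham and 0.657 to 0.857 in BDL libraries. That of Tubb5 to Tubb4b was 0.266 to 0.332 and 0.847 to 1.09, and that of Tuba1c to Tuba1b was 0.201 to 0.254 and 0.382 to 0.421. The family sums were also higher in BDL, at 1495 ± 124 CPM (SD, n = 4) against 472 ± 66.3 CPM (SD, n = 3) for alpha, or 3.17-fold, and at 993 ± 126 against 284 ± 38.3 CPM for beta, or 3.49-fold. Per kilobase, the ratio of alpha to beta was 1.35 to 1.55 in sham and 1.495 to 1.80 in BDL libraries, and these ranges overlapped.

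A term for a different BDL effect in males and females passed the test for 0 of the 10 genes and 0 of all 25209 genes (edgeR's quasi-likelihood test with Benjamini-Hochberg adjustment, 0% of genes called, 1742 genes at an unadjusted p under 0.05). Tubb3 alone among the 10 had an unadjusted p under 0.05 (0.0103, log2 difference of male minus female effect -2.32, SE 0.64, adjusted p = 0.704). The female sham group was 1 library, which limits this test.

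Promoter windows of 250 bases before to 50 bases after the start were found in the RefSeq table (GRCm38.p6) for 8 of the genes, all but Tubb2b and Tubb6. The CCAAT box, a common element of the promoters of cell cycle genes, was searched as CCAAT on both strands and occurred in 5 of 8 windows, against 37.4% of all 32851 windows. Searched in the same way, GGGCGG, the core bound by Sp factors, occurred in 7 of 8 against 35.7%, and TATAAA in 2 of 8 against 13.6%. TTTGAA, from the element of late cell cycle promoters, occurred in 1 of 8 against 17.9%. The motifs were described and not tested, and a match is not evidence of binding. The windows of Tubb4b and Tubb5 are shown because they held the most CCAAT boxes, 5 and 2, and belong to the beta genes with the smallest and the second largest change. CCAAT is in capitals, each sequence reads along the gene, and both lie on the minus strand.
Tubb4b, chr2:25224653-25224952: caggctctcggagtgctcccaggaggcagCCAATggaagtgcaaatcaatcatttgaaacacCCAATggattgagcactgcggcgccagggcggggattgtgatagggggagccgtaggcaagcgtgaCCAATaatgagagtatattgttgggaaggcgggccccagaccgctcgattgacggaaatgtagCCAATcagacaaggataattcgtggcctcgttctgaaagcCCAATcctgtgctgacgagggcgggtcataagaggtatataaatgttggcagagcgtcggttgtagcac
Tubb5, chr17:35838252-35838551: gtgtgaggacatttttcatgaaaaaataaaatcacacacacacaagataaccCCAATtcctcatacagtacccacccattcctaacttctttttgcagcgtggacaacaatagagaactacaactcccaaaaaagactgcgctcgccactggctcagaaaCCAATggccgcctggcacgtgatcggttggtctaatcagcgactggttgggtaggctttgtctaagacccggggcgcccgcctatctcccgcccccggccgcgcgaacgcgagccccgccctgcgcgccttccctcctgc

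Genes that fold, nucleate, modify or bind tubulin, or degrade its messenger RNA, were described next. Their lists were taken from textbook functions, with earlier results of these data known. The counts of each list stand beside 11.8% of all genes tested called higher and 11% called lower. Other tubulins did not follow the 10 as a group: of 8 tested, 2 were higher and 0 lower, and the median log2 fold change was -0.25. Both that rose lie at the microtubule organizing centre. Tubg1, the gamma tubulin from which microtubules grow, measured 13.9, 13.6 and 10.01 CPM in sham and 46.6, 44.1, 42.2 and 51.2 CPM in BDL replicates (log2 fold change 1.86, SE 0.17, adjusted p = 0.000834). Tube1, the centriolar epsilon tubulin, changed by 1.46 on the log2 scale (SE 0.29, adjusted p = 0.0122). The alpha and beta genes tested in this list were not called and had estimates below 0. They were Tuba3a (-1.04, SE 0.86), Tuba8 (-0.11, SE 0.80), Tubb1 (-3.12, SE 1.135) and Tubb4a (-0.25, SE 0.37). Tubb4a was the highest of them, at 2.14 to 4.35 CPM in sham and 1.87 to 3.07 CPM in BDL libraries. The rise of all 10 members therefore does not extend to every alpha and beta gene.

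The gamma-tubulin ring complex and augmin, which start and branch microtubules, had 10 of 16 genes higher and 0 lower (median 0.84). The augmin subunits Haus3 (1.60, SE 0.15) and Haus6 (1.97, SE 0.19) and the ring subunit Tubgcp2 (1.17, SE 0.13) had the smallest p-values. Folding cofactors and prefoldin, which carry new tubulin from the ribosome to the dimer, had 4 of 13 higher and 0 lower (median 0.45). Among them were Tbcb (1.32, SE 0.14), Tbcd (1.23, SE 0.16) and Pfdn4 (1.12, SE 0.19), which act on alpha tubulin, on beta tubulin and in the prefoldin complex, respectively.

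Enzymes that modify tubulin were mixed, with 3 of 25 higher, near the share over all genes tested, and 7 lower (median -0.26). The 3 that rose were Vash2 (2.05, SE 0.37), which removes the terminal tyrosine of alpha tubulin, its partner Svbp (0.67, SE 0.18), and Ttll12 (0.60, SE 0.15), a tyrosine ligase-like protein. Among those that fell were the polyglycylase Ttll10 (-1.92, SE 0.34) and the deglutamylase Agbl3 (-1.10, SE 0.22). Vash2 measured 4.70, 3.81 and 2.17 CPM in sham and 16.6, 19.3, 14.1 and 9.35 CPM in BDL replicates, so that all BDL libraries were higher, from a low level. Svbp and Ttll12 each lost their calls in 9 of 20 alternatives, including most that left out 1 library (adjusted p up to 0.161 and 0.153).

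Proteins that stabilise microtubules or track their growing ends had 6 of 25 higher and 4 lower (median 0.24). Prc1 (5.0, SE 0.35), which bundles the central spindle, and Tpx2 (5.07, SE 0.42), which builds the spindle, rose most. Those that fell were the doublecortin-like kinase Dclk1 (-2.36, SE 0.16), the neuronal stabiliser Map2 (-0.78, SE 0.22), Map7d2 (-1.95, SE 0.52) and Map9 (-1.31, SE 0.34), of which Map2, Map7d2 and Map9 lost their calls in 8, 10 and 8 of 20 alternatives (adjusted p up to 0.221, 0.139 and 0.109). Stathmins and severing enzymes had 3 of 11 higher and 0 lower (median -0.06). Stmn1, which binds free dimers and promotes disassembly, rose from 21.1, 43.96 and 24.7 CPM to 243, 216, 205 and 212 CPM (2.96, SE 0.27), and Fignl1 (3.55, SE 0.75) was also called higher. The Fignl1 call ended without sham replicate 1 (adjusted p = 0.0747), and its value was 4.69 without sham replicate 2.

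Of 12 genes of tubulin messenger RNA autoregulation, 3 were higher and 0 lower (median 0.25). These were the CCR4-NOT subunits Cnot9 (1.56, SE 0.14), Cnot6 (1.06, SE 0.17) and Cnot11 (0.76, SE 0.15). Ttc5, which recognises the start of the nascent chains shown above, measured 33.7, 35.4 and 38.9 CPM in sham and 26.0, 27.9, 33.8 and 29.6 CPM in BDL replicates. Its groups overlapped, and its value of -0.32 on the log2 scale (SE 0.15, adjusted p = 0.166) did not pass the test.

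For comparison, 6 of 9 genes of other filament systems were higher and 0 lower (median 1.35), among them the actin gene Actb (2.21, SE 0.29) and the biliary keratins Krt7 (2.41, SE 0.23) and Krt8 (1.62, SE 0.31). The 4 proliferation markers named by the study were all higher, and their summed share was 0.00213% to 0.00674% of sham and 0.0504% to 0.0555% of BDL counts. Their part in the tubulin changes was not tested.

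**Figure D5:**
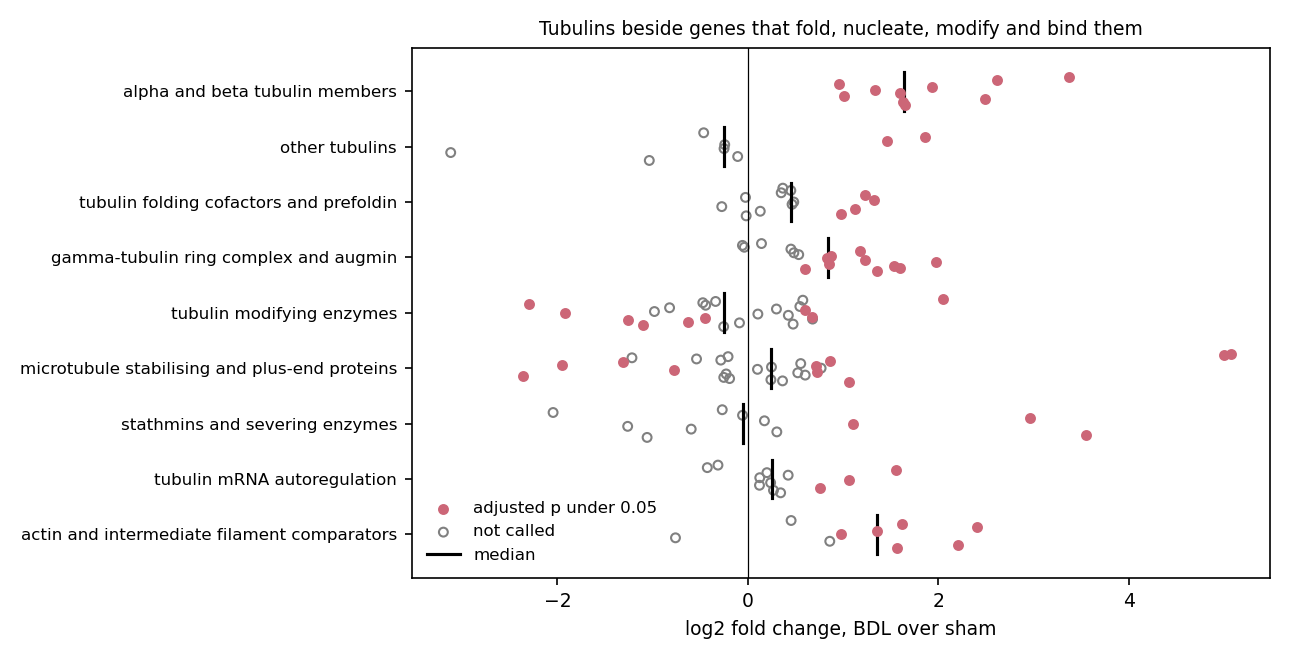
Log2 fold change of BDL over sham for the tubulin genes and for each list (points, filled when the adjusted p was under 0.05), with a line at each list's median. The tubulins sit to the right of 0, as do the actin and intermediate filament genes apart from Des (-0.76, not called). The modifying enzymes spread to both sides. Genes with 0 counts in every library of one group are not drawn.

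The genes whose levels followed a tubulin most closely over the 7 libraries were found by Pearson correlation of log2(CPM + 0.5) among 9981 genes with a mean of at least 10 CPM. For Tuba1a, the most abundant per length, they were Nup85 (0.997), Ugdh (0.996), Psmd7 (0.996), Bcat1 (0.996) and Gapdh (0.995). For Tubb6 they were Tyms, Snrpa1, Impdh2, Cops5 and Lsm2 (each 0.999). The 7 points fall into the sham and BDL groups and share libraries and scaling, so any gene with a large change between groups correlates highly. The 45 pairs among the 10 tubulins ranged from 0.71 to 1.0.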

How the data were processed

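Whole EHBD RNA from 7 libraries (3 sham, 4 BDL, 48 hours) was made into cDNA with the SMART-Seq kit by the study. Per the study's methods, the authors counted reads with Salmon against GENCODE vM33 on GRCm39 and summarised them to genes with tximeta. The table the authors deposited holds estimated counts, whole numbers with no normalisation, for 56065 genes. Where near-identical genes share reads, Salmon apportions them by estimation, which affects the separate values of Tuba1a, Tuba1b, Tuba1c, Tubb2a and Tubb2b.

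The counts were tested with edgeR 4.0.16 (quasi-likelihood test after TMM scaling, with terms for sex and surgery and 4 degrees of freedom left over) on the 25209 genes whose counts summed to 10 or more, and p-values were adjusted by Benjamini-Hochberg over all of them (threshold 0.05). CPM used TMM-scaled totals. A fitted log2 fold change is BDL over sham. Its SE was derived from the test, as the absolute log2 fold change divided by the square root of the F value. The script was tested on simulated data. Gene positions, lengths and coding sequences came from GENCODE vM39, in which 55563 of the 56065 identifiers were found, and the 502 others held 0.0335% of counts. The authors' vM33 models may differ. Coding bases were compared in place of proteins. Shared 31-base words were counted on both strands.

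All 10 members are named, with, from each list, the up to 3 called genes of smallest p, called genes that moved against the list's majority, and Ttc5. The tested alpha and beta genes among the other tubulins are named as well. A gene that this rule names and some coding sequences are not reported here. Members and lists were chosen with earlier results of these data known. Alternatives were other scalings, filters and tools, no sex term, robust dispersion, neighbouring-tissue markers left out, summed paralogs and each library left out. Markers whose values are given beside Tubb3 and Tubb4b were called genes of those lists, apart from Gap43 and Tppp3.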

Additional observations from a re-analysis of the deposited data

Results flagged for a closer look

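Among the 4 BDL libraries, the extreme one was compared with the others for 30 values (shares, ratios, sums and levels), and 3 stood apart, where chance gives about 1 in 20. The Tubb5 share of the beta pool was 29.0% in BDL replicate 3 and 24.0% in the nearest other BDL library. The Tubb6 share was 16.1% in BDL replicate 1 and 18.1% in the nearest other. The ratio of Tubb2a to Tubb2b was 19.4 in BDL replicate 4 and 6.50 in the nearest other, and this library also had the highest hepatocyte marker share of the 7 (3.64%), whose part in the ratio was not tested.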

How the results depend on the processing

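The direction of all 10 members held under every alternative in which their rows were fitted. Of their calls, 9 remained with upper quartile scaling or no sex term (Tubb3 was lost), and 7 to 9 with 1 library left out. Upper quartile scaling moved the median of all genes to -0.13. The context lists had 8, 13, 16, 25, 25, 11, 12 and 9 genes tested, and over them 37 genes were called higher and 11 lower. Those higher made up a larger share than the 11.8% of all genes tested, and those lower a smaller share than the 11%. The lower count was 17 with DESeq2 and 3 to 10 with 1 library left out. Alternatives chosen after seeing the data gave 4 lower without BDL replicates 1 and 4, 24 higher and 4 lower without BDL replicates 2 and 3, and 4 lower without sham replicate 3 and BDL replicate 4. Without BDL replicates 2 and 3 the calls of Tube1 and Cnot11 were among those lost (adjusted p = 0.0802 and 0.0804), and Agbl3 lost its call without sham replicate 3 and BDL replicate 4 (adjusted p = 0.0588). The cause was not tested. The order by level with the longest transcript kept 5 of 10 ranks in sham and 6 in BDL. No count over 10 members could be given with paralogs summed, since rows were merged. No paired analysis was possible because the labels give no replicate numbers that sham and BDL share. With 3 and 4 libraries and 1 female sham, small changes and effects of sex are poorly resolved, and Tubb3 rests on 13 to 205 counts a library. Shared reads between near-identical genes limit the separate values.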
